A study of Homo sapiens with 4 samples.

Results

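The 111 genes described here are the enzymes of central carbon metabolism in the deposited table, chosen as all genes whose pathway annotation there held the KEGG maps of glycolysis and gluconeogenesis, the citrate (TCA) cycle or the pentose phosphate pathway, out of 60664 genes in all. There were 68 in the glycolysis map, 31 in the TCA cycle map and 30 in the pentose phosphate map, and 18 stood in more than 1 map. The RNA came from Hs578T, a human triple-negative breast cancer cell line with mesenchymal features. There were 2 libraries of the group labelled empty and 2 with overexpression of TFCP2L1, which encodes a CP2-type DNA-binding transcription factor. The labels give no other treatment, time, vector, promoter or clone for either group, and the deposited table calls the control FLAG. Nothing in them tells separate cultures from repeat libraries, and the p-values therefore reflect library-to-library spread that may be purely technical.

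As a check of the labels, the TFCP2L1 count was 12 and 19 without overexpression and 4623 and 5069 with it, so all 4 libraries fitted their group. Depth ran from 18960674 to 26355502 estimated counts per library. Of the markers of the line, VIM, CDH2, FN1, ZEB1 and CD44 were present, the lowest of them being ZEB1 at 39.0 CPM (estimated counts scaled to the TMM-adjusted library size) in its lowest library, while THY1 stayed under 0.5 CPM. With TFCP2L1, VIM and CDH2 were called higher (log2 fold changes 0.27 and 0.47) and FN1, ZEB1 and CD44 lower (-0.32, -0.54 and -0.35). The VIM call was lost without empty replicate 1. PGR, a luminal receptor gene, was listed at 0, and ESR1, EPCAM, CDH1 and KRT19 did not exceed 0.839 CPM in any library. Of the other luminal genes, ERBB2 was at 47.2 and 46.6 CPM against 85.7 and 87.8 CPM with TFCP2L1 and was called higher, and KRT18 was at 320.2 and 317 against 193 and 210.5 CPM and was called lower. FOXA1 was low, at 0.901 and 0.581 against 1.51 and 1.95 CPM (edgeR adjusted p = 0.0145), a call lost with DESeq2 and without empty replicate 2 or overexpression replicate 2, and GATA3 was present at 9.70 and 9.88 against 10.5 and 13.8 CPM and did not pass. Of 10 markers of other cell types, 8 stayed under 1 CPM, with ALB listed at 0 in all libraries. The list summed to 70.6 and 63.5 CPM in the empty and 97.0 and 99.0 CPM in the overexpressing libraries, nearly all of it CD68, at 36.1 and 38.1 against 86.3 and 88.3 CPM, and PECAM1, at 34.1 and 25.3 against 9.94 and 9.92 CPM. Their part in the results was not tested. No batch is labelled, so a batch that went with the groups cannot be told apart from them.

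Glycolysis splits glucose into pyruvate in the cytosol and yields ATP and NADH, and lactate dehydrogenase returns that NADH to NAD+ by reducing pyruvate to lactate. The pyruvate dehydrogenase complex instead commits pyruvate to acetyl-CoA, which the TCA cycle oxidises in the mitochondrion. The pentose phosphate pathway branches off at glucose 6-phosphate: its oxidative arm makes NADPH, and its reversible, non-oxidative arm links ribose phosphates back to glycolytic sugars. Breast cancer lines of the mesenchymal kind are known for high glucose use and lactate release.

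With TFCP2L1, transcripts of the TCA cycle were mostly higher by small amounts, whereas PGK1, PKM and LDHA of the ATP- and lactate-yielding end of glycolysis were lower. Of the same end ENO1 and PGAM1 were lower too, GAPDH did not pass, and LDHB was called higher near the threshold. In upper glycolysis PFKM, PFKP and GPI were called higher and ALDOC lower, and ALDOA and TPI1 did not pass. The glycolysis map was thus mixed, with 31% of tested members higher and 26.2% lower, against 23.5% and 23.9% of all tested genes. In the pentose phosphate pathway H6PD and PGLS of the oxidative arm were lower. The PGLS call was lost with DESeq2, and PGD of that arm did not pass. Of the non-oxidative arm TKT and TALDO1 were higher, RPIA was lower and RPE did not pass. In bulk RNA, fewer cells that express a gene and less of its RNA per cell cannot be told apart. Of the 111 genes, 80 passed the filter on low counts, and the other 31 were at or near 0, with at most 0.267 CPM in any library (ENO4) and 15 of them listed at 0 throughout. Among the 80, 34 were higher and 18 lower (edgeR quasi-likelihood test, adjusted p under 0.05 over all genes tested), together 65%, against 47.5% of the 16544 genes tested. These enzymes are abundant, and abundant genes were called more often: at 50 CPM or more in the higher group, 37 of 55 members were called (67.3%), against 59.9% of 4855 tested genes. At 5 CPM or more, 53.9% of all tested genes were called. The shares of all tested genes given per step below take no account of level. At 50 CPM or more, 33.7% of tested genes were higher and 26.1% lower. The changes were small for the most part, with 9 members (11.2%) past a log2 fold change of 1 in size, against 13.9% of all tested genes. The libraries of the groups did not overlap for 68 of the 80 members, against 73.7% of all tested genes. Fewer members were called higher, and fewer lower, when either empty library was left out. Leaving out a library also lowered the number of all tested genes called lower, in every such fit. It could lower the number of all tested genes called higher as well. How far the drop is particular to these members was not tested, and the same limit holds for the counts per map below.

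**Figure D1:**
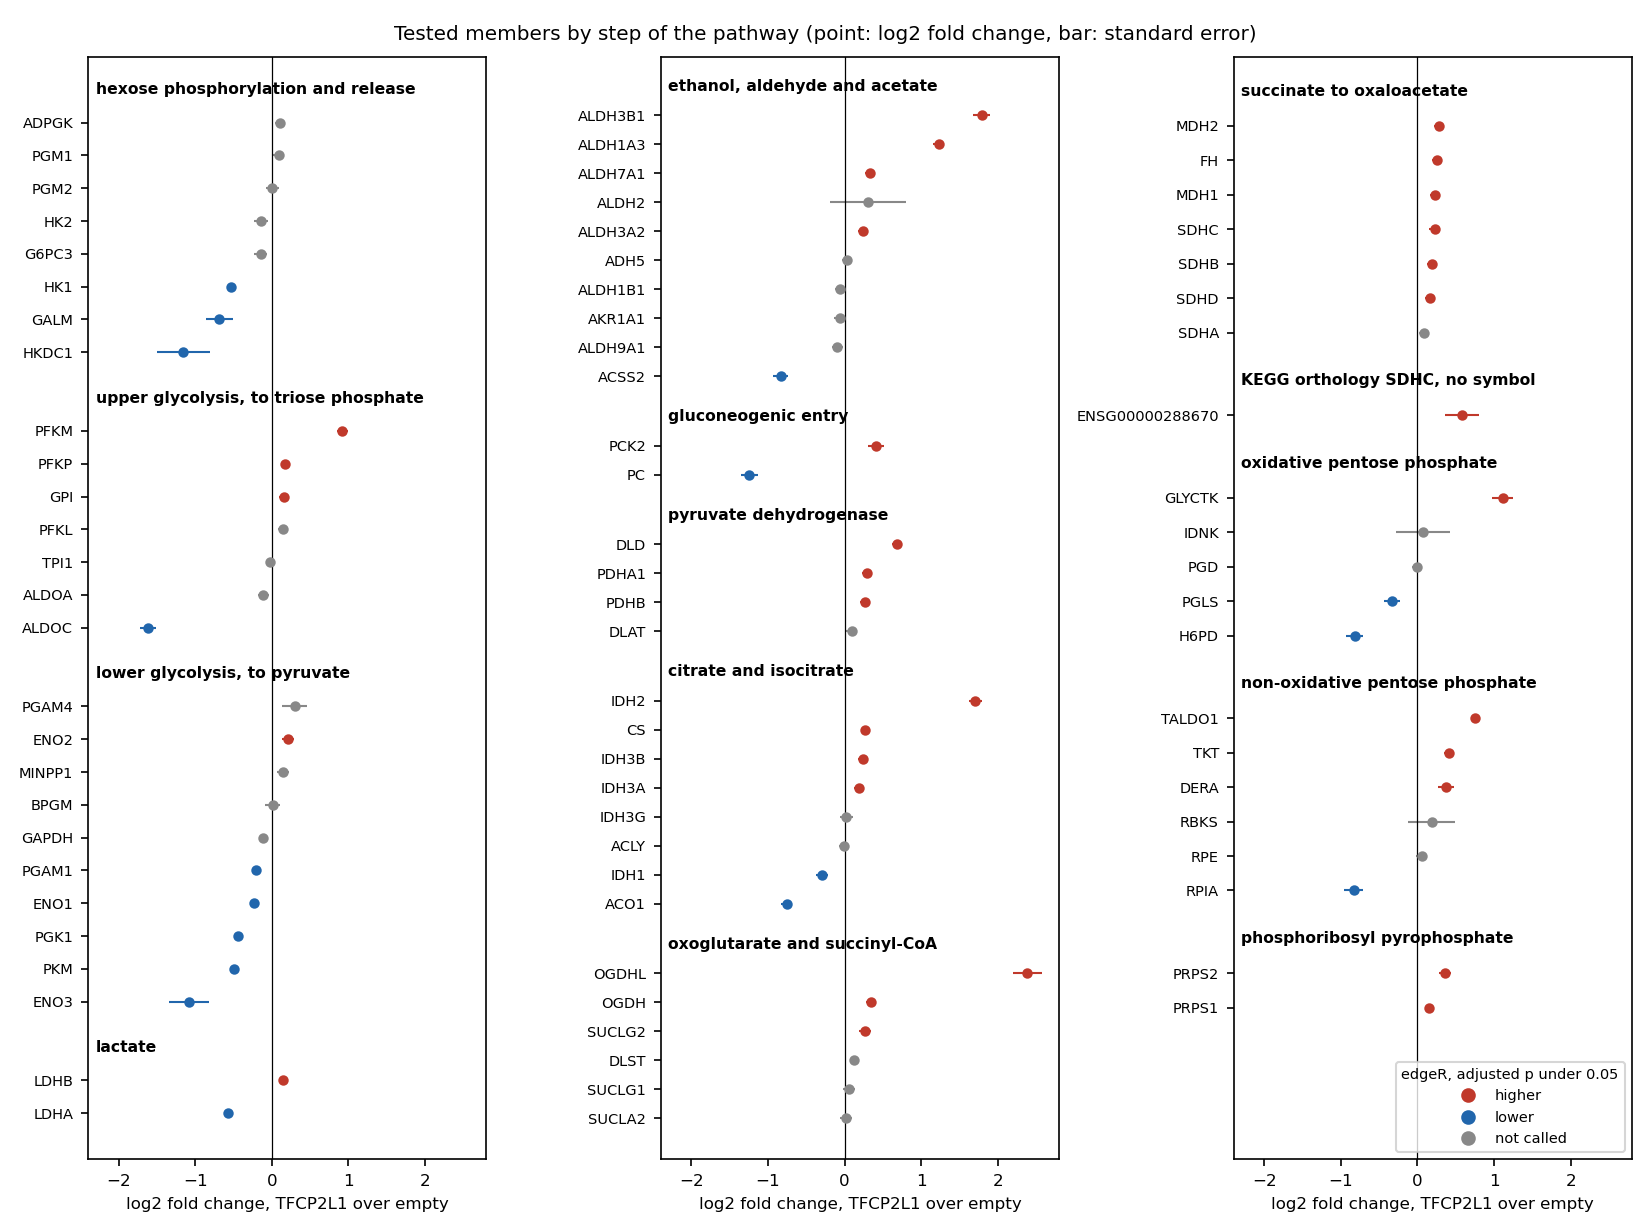
Log2 fold change (TFCP2L1 over empty, x axis) of 78 of the 80 tested members, grouped by step of the pathway, with its standard error as a bar and the color showing the edgeR call. Most TCA cycle points lie just right of 0, the called points of lower glycolysis lie left of it apart from ENO2, and OGDHL at 2.38 and ALDOC at -1.62 are the farthest to each side.

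In the glycolysis map, 13 of 42 tested members were higher (31%) and 11 lower (26.2%), where 23.5% and 23.9% of all tested genes were called in these directions. At 50 CPM or more, 11 of 29 were higher and 6 lower, together 58.6%. Of tested genes of that level 59.9% were called, so the share was close to theirs. The median log2 fold change of the map was 0.02, with all tested genes at -0.002. Without empty replicate 1 or 2, 7 and 8 members were called higher. The map also holds aldehyde and acetate enzymes and the pyruvate dehydrogenase genes, so the steps are given in turn.

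Glucose enters by phosphorylation, and HK1, the hexokinase with the most transcript here, was lower. HK1 (GRCh38, chromosome 10, 69269984 to 69401884, plus strand, protein-coding) measured 335 and 335 CPM in the empty libraries and 229.8 and 232 CPM in the overexpressing ones, a log2 fold change of -0.54 (SE 0.05, edgeR adjusted p = 1.73e-06). Both overexpressing libraries lay well below both empty ones. HK2, the hexokinase often raised in tumors, was at 26.1 and 28.4 CPM against 24.9 and 24.6 CPM and did not pass (log2 fold change -0.14, SE 0.09, adjusted p = 0.23). ADPGK, which uses ADP in place of ATP, did not pass either, at 78.9 and 81.4 against 85.7 and 86.9 CPM. HKDC1, a low-expressed hexokinase, was lower at 1.85 and 1.64 against 0.881 and 0.687 CPM, a call lost with DESeq2 and without empty replicate 1 or overexpression replicate 2. GALM, which interconverts the forms of galactose and glucose, had 6.40 and 7.14 CPM in empty and 4.28 and 4.12 CPM in overexpressing libraries (log2 fold change -0.69, SE 0.18, adjusted p = 0.00544). In this step 0 of 8 tested genes rose and 3 fell (37.5%), where 23.5% and 23.9% of all tested genes did. PGM1, PGM2 and G6PC3, which handle glucose phosphates, were among the others.

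Upper glycolysis carries the committed step, and 2 of its 3 phosphofructokinase genes, PFKM and PFKP, were called higher. PFKM, the muscle-type isoform (chromosome 12, 48105139 to 48146404, plus strand, protein-coding), rose from 44.2 and 48.2 CPM to 88.0 and 86.8 CPM (log2 fold change 0.92, SE 0.07, edgeR adjusted p = 1.50e-07). PFKP, the platelet-type isoform and the one with the most transcript, went from 544 and 559 to 609 and 633 CPM (log2 fold change 0.17, SE 0.05, adjusted p = 0.0169), a call lost without either empty library. PFKL, the liver type, had 74.4 and 77.2 and then 82.2 and 85.4 CPM and did not pass (adjusted p = 0.0946). All 3 had both overexpressing libraries above both empty ones, as did 36.7% of all tested genes. GPI, which turns glucose 6-phosphate into fructose 6-phosphate, rose by 0.15 on the log2 scale (SE 0.06, adjusted p = 0.0378), but not with upper quartile scaling or without either empty library.

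ALDOC fell more than any other tested member of the 3 maps. This brain-type aldolase (chromosome 17, 28573115 to 28577264, minus strand, protein-coding) dropped from 35.3 and 37.6 CPM to 10.9 and 12.7 CPM, 3.07-fold lower (log2 fold change -1.62, SE 0.10, edgeR adjusted p = 1.56e-08). ALDOA, the main aldolase, did not pass, with 1113 and 1230.0 CPM in empty and 1013 and 1155 CPM in overexpressing libraries, and the groups overlapped. TPI1, which interconverts the triose phosphates, stood at 933 and 915 against 883 and 939 CPM, also with overlap (adjusted p = 0.781). In upper glycolysis as a whole 3 of 7 tested genes rose (42.9%) and 1 fell (14.3%), against 23.5% and 23.9% of all tested genes.

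From triose phosphate to pyruvate 5 of 10 tested genes fell (50%), among them PGK1, PKM and ENO1, and 1 rose (10%). Of all tested genes 23.9% fell and 23.5% rose. PGK1, which makes the first ATP of the payoff phase (chromosome X, 77910739 to 78129296, plus strand, protein-coding), fell from 997 and 1029 to 751 and 747 CPM (log2 fold change -0.43, SE 0.05, edgeR adjusted p = 1.08e-05). PKM, the pyruvate kinase that makes the last ATP (chromosome 15, 72199029 to 72231822, minus strand, protein-coding), fell from 3702 and 3659.8 to 2529.7 and 2713 CPM (log2 fold change -0.49, SE 0.05, adjusted p = 4.78e-06). Both overexpressing libraries were far below both empty ones for each gene, and gene-level counts do not separate its M1 and M2 splice forms. PGAM1, phosphoglycerate mutase, and ENO1, the main enolase, fell by less, with log2 fold changes of -0.21 and -0.23 (adjusted p = 0.00529 and 0.00296). The PGAM1 call was lost without either empty library and the ENO1 call without empty replicate 1. GAPDH, the member with the most TPM in every library and a common reference gene, had 4597 and 4569 CPM in empty and 4032 and 4433 CPM in overexpressing libraries and did not pass (log2 fold change -0.11, SE 0.06, adjusted p = 0.115).

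The minor enolases diverged. ENO3, the muscle form, was low and fell further, from 4.34 and 4.86 to 1.55 and 2.75 CPM (adjusted p = 0.00358), whereas ENO2, the neuronal form, went from 41.5 and 45.1 to 50.8 and 49.6 CPM (adjusted p = 0.0373), a call lost with DESeq2, with upper quartile scaling and without either empty library. BPGM and MINPP1, which make and break down 2,3-bisphosphoglycerate, did not pass. GAPDH, PGAM1, PKM, LDHA and others of these enzymes have many processed copies in the genome, and PGAM4 is a near-identical copy of PGAM1, and it is uncertain how the counting split reads among them.

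LDHA and LDHB, the subunits of lactate dehydrogenase, moved apart. LDHA, whose tetramer favors lactate formation (chromosome 11, 18394388 to 18408425, plus strand, protein-coding), fell from 2094 and 2179 to 1405 and 1469 CPM (log2 fold change -0.57, SE 0.05, edgeR adjusted p = 8.51e-07). LDHB, whose tetramer favors lactate use, was at 797 and 830.1 CPM and then 865 and 938 CPM (log2 fold change 0.15, SE 0.06, adjusted p = 0.0463). The LDHB call sits at the threshold: it was lost with DESeq2-type or upper quartile scaling, with the 1 CPM filter, and without either empty library or overexpression replicate 2. The overexpressing libraries lay below the empty ones for LDHA and above them for LDHB.

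**Figure D2:**
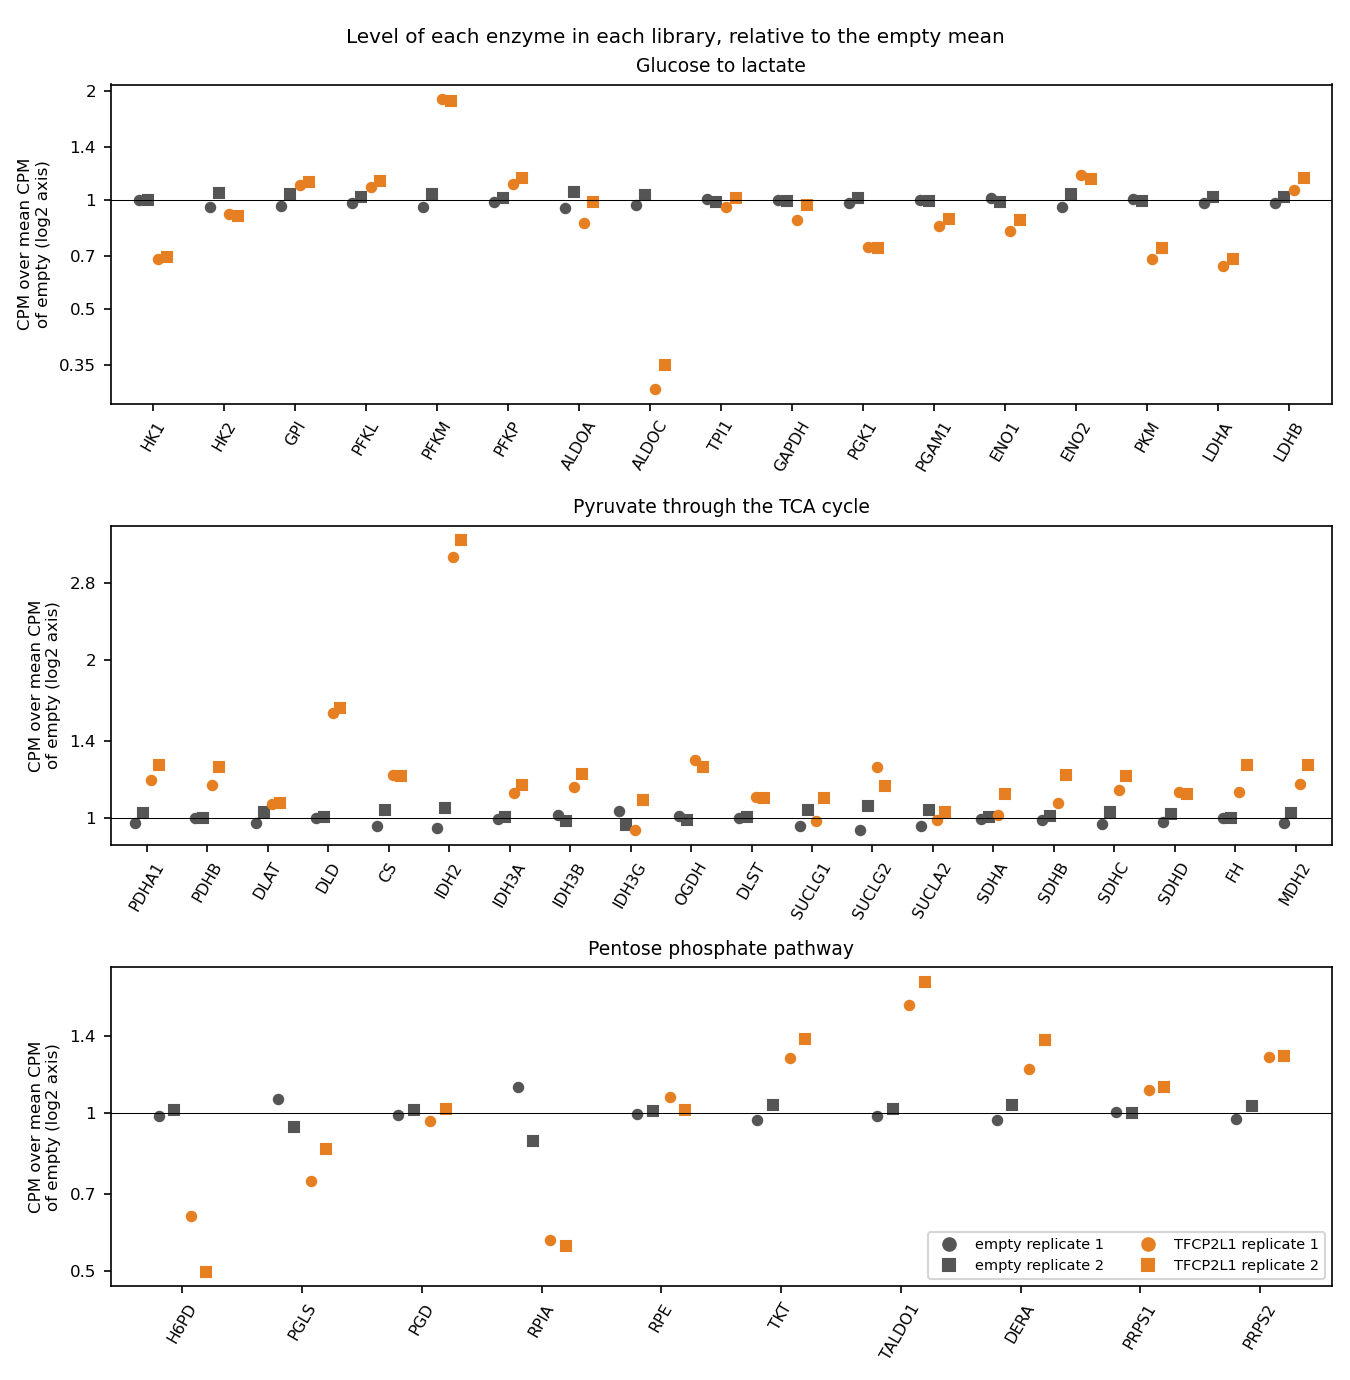
CPM of each enzyme in each of the 4 libraries divided by the mean CPM of the empty libraries (log2-spaced y axis), in the order of the pathways, with grey for empty, orange for TFCP2L1, circles for replicate 1 and squares for replicate 2. HK1, PGK1, PKM and LDHA sit well below 1 in both overexpressing libraries, and most TCA cycle enzymes sit slightly above 1, with DLD and IDH2 higher.

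Promoter sequences from RefSeq (GRCh38.p14; 250 bases before to 50 after a start) are shown for the member with the largest fall (ALDOC), for LDHA and PGK1, which are textbook targets of hypoxia-inducible factor, and for the member with the largest rise (OGDHL). Capitals mark matches on either strand to ACGTG, the core bound by hypoxia-inducible factor, or to a paired half-site form of the CP2-family motif, CCAG followed after 6 bases by CCNG. Where a gene has several starts in that table its first entry was used.
ALDOC promoter, chr17:28576846-28577145, minus strand: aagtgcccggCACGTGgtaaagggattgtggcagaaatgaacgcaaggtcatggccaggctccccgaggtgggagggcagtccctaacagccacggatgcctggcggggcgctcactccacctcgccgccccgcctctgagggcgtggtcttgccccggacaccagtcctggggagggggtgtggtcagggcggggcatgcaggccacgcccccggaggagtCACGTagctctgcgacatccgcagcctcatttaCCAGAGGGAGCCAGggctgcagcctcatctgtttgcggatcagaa
LDHA promoter, chr11:18394313-18394612, plus strand: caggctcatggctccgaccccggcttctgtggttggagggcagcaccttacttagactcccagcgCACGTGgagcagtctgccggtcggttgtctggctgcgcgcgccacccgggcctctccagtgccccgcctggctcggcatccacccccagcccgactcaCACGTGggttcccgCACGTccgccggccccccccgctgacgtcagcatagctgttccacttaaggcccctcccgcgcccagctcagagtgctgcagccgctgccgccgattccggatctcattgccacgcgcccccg
PGK1 promoter, chrX:78103998-78104297, plus strand: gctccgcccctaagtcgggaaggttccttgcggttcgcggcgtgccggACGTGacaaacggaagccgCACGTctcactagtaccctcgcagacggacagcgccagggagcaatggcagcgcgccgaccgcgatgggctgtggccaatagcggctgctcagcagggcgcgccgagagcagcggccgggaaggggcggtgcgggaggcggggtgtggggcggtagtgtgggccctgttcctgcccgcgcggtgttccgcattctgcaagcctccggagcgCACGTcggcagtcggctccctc
OGDHL promoter, chr10:49762274-49762573, minus strand: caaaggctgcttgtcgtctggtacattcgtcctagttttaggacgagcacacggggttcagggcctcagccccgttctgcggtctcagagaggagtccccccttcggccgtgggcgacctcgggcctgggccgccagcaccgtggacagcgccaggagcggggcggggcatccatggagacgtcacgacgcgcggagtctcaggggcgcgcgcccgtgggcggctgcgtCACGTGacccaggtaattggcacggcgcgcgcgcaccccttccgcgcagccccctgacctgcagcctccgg
All 4 hold ACGTG, and a match lies within the palindrome CACGTG, an E-box, in ALDOC, LDHA and OGDHL; ALDOC alone of them holds the CP2-family form, downstream of the ACGTG matches. Over the 73 tested members with an entry (those without one include ALDH2, IDNK, OGDH, SDHC and ENSG00000288670), ACGTG occurred in 34.2% and the CP2-family form in 13.7%, against 21.6% and 13.8% of 27305 RefSeq promoters. These sets are unlike, as the members had passed the filter on low counts and the RefSeq promoters were taken without such a filter. Whether the difference is particular to these enzymes was not tested. ACGTG was in 5 of 17 members called lower, 8 of 30 called higher and 12 of 26 not called, and the CP2-family form in 2, 4 and 4 of them. A match in a 300 base window is a description of letters, not of binding.

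The side branches of the map held its largest rises. ALDH3B1, an aldehyde dehydrogenase of medium- and long-chain lipid aldehydes, rose from 8.28 and 7.77 to 28.2 and 27.4 CPM (log2 fold change 1.79, SE 0.11, edgeR adjusted p = 9.01e-09). ALDH1A3, which makes retinoic acid from retinal, rose from 72.7 and 83.2 to 187 and 178 CPM (log2 fold change 1.23, SE 0.07, adjusted p = 5.56e-09). ACSS2, which makes acetyl-CoA from acetate in cytosol and nucleus, fell from 25.8 and 24.7 to 13.8 and 14.5 CPM (log2 fold change -0.83, SE 0.10, adjusted p = 9.66e-06). No library of one group reached into the other for these 3 genes, as for 73.7% of all tested genes. In all, 4 of 10 tested genes of this branch rose (40%), ALDH7A1 and ALDH3A2 among them, and 1 fell (10%). Of all tested genes 23.5% rose and 23.9% fell. ALDH3A2 was no longer called without either empty library.

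At the entry to gluconeogenesis the 2 tested genes moved in opposite directions. PC, pyruvate carboxylase, which makes oxaloacetate from pyruvate and so also refills the TCA cycle, fell from 32.5 and 28.9 to 11.8 and 14.1 CPM (log2 fold change -1.24, SE 0.11, edgeR adjusted p = 5.15e-07). PCK2, the mitochondrial enzyme that makes phosphoenolpyruvate from oxaloacetate, went from 19.4 and 24.2 to 28.2 and 29.5 CPM (log2 fold change 0.41, SE 0.11, adjusted p = 0.0057), a call lost without empty replicate 1. PCK1, G6PC1 and FBP1, the liver and kidney enzymes of glucose output, were listed at 0 in all libraries.

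In the TCA cycle map 19 of 29 tested members were higher (65.5%) and 3 lower (10.3%), against 23.5% and 23.9% of all tested genes. At 50 CPM or more, 16 of 23 were higher and 2 lower, where 33.7% and 26.1% of tested genes of that level were. The median log2 fold change was 0.23, and it lay between 0.172 and 0.278 when any 1 library was left out. The number of higher members fell to 9 without empty replicate 1 and to 12 at an adjusted p under 0.01. Whether this map differs from the glycolysis map was not tested.

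At the link from pyruvate into the cycle 3 of 4 tested genes rose (75%, against 23.5% of all tested genes). All 4 were at 50 CPM or more in the higher group, where 33.7% of tested genes rose. DLD, the dehydrogenase subunit shared by the pyruvate, oxoglutarate and branched-chain complexes, rose from 107 and 107 to 169 and 173 CPM (log2 fold change 0.68, SE 0.06, edgeR adjusted p = 3.93e-07). PDHA1, the E1 alpha subunit that carries the regulatory phosphorylation sites, rose from 103 and 107 to 124 and 132 CPM (log2 fold change 0.29, SE 0.06, adjusted p = 0.00196). PDHB, the E1 beta subunit, rose by 0.27 on the log2 scale (adjusted p = 0.00427), and DLAT, the acetyltransferase core, did not pass at 85.2 and 89.4 against 92.7 and 93.0 CPM. Both overexpressing libraries were above both empty libraries for all 4 genes, as they were for 36.7% of all tested genes.

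Of the citrate and isocitrate steps 5 of 9 tested genes rose (55.6%) and 2 fell (22.2%), against 23.5% and 23.9% of all tested genes. The mitochondrial and cytosolic NADP-dependent isocitrate dehydrogenases split. IDH2, the mitochondrial NADP-dependent isocitrate dehydrogenase (chromosome 15, 90083045 to 90102504, minus strand, protein-coding), rose 3.26-fold, from 22.9 and 24.9 to 74.9 and 80.7 CPM (log2 fold change 1.71, SE 0.08, edgeR adjusted p = 8.89e-10). IDH1, its cytosolic counterpart, was at 65.5 and 67.7 CPM and then 55.2 and 53.2 CPM (log2 fold change -0.30, SE 0.07, adjusted p = 0.00378), a call lost without empty replicate 2. ACO1, the cytosolic aconitase that becomes an iron-regulatory protein without its cluster, fell from 77.9 and 77.1 to 47.0 and 44.8 CPM (log2 fold change -0.76, SE 0.07, adjusted p = 9.65e-07).

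CS, citrate synthase, which opens the cycle, rose from 333 and 357 to 417 and 415 CPM (log2 fold change 0.27, SE 0.06, edgeR adjusted p = 0.00126), though not without empty replicate 1. IDH3A, the catalytic subunit of the NAD-dependent enzyme, went from 109.6 and 110.3 to 123 and 127 CPM (adjusted p = 0.023) and lost its call with upper quartile scaling and without either empty library. IDH3B was higher too, except without empty replicate 2, and IDH3G overlapped between groups. ACLY, which exports citrate carbon to lipid synthesis, did not pass, at 498 and 514 against 514 and 489 CPM, with overlap.

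OGDHL had the largest rise of all tested members. This paralog of the oxoglutarate dehydrogenase E1 subunit, known mainly from brain (chromosome 10, 49734643 to 49762379, minus strand, protein-coding), rose 5.22-fold, from 1.76 and 1.74 to 9.10 and 9.23 CPM (log2 fold change 2.38, SE 0.19, edgeR adjusted p = 1.57e-07). OGDH, the common E1 subunit, rose from 77.2 and 76.0 to 99.0 and 95.7 CPM (log2 fold change 0.34, SE 0.07, adjusted p = 0.00059). Each rise was far larger than the gap between libraries of a group. DLST, the E2 core of the same complex, did not pass (adjusted p = 0.0676), and of the succinyl-CoA ligase subunits SUCLG2 was called higher, except without empty replicate 1, while SUCLG1 and SUCLA2 overlapped between groups.

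From succinate to oxaloacetate 6 of 7 tested genes were higher (85.7%, against 23.5% of all tested genes), all by little. All 7 were at 50 CPM or more in the higher group, where 33.7% of tested genes were higher. MDH2, mitochondrial malate dehydrogenase, rose from 239 and 249.5 to 283 and 308 CPM (log2 fold change 0.28, SE 0.06, edgeR adjusted p = 0.00173), and it was the only one of the 6 called in every alternative tried. FH, fumarase, and MDH1, the cytosolic malate dehydrogenase, had log2 fold changes of 0.25 and 0.23 (adjusted p = 0.00688 and 0.0112). SDHB, SDHC and SDHD, the iron-sulfur and membrane anchor subunits of succinate dehydrogenase, had 0.19, 0.23 and 0.16 (adjusted p = 0.0361, 0.0136 and 0.049), and SDHA, the flavoprotein, 0.09 (adjusted p = 0.273). In all 7 both overexpressing libraries lay above both empty ones, as they did for 36.7% of all tested genes. Without empty replicate 1, FH, MDH1, SDHB, SDHC and SDHD were not called, and without empty replicate 2, FH, SDHB and SDHD were not. The SDHB and SDHD calls were also lost with DESeq2. An unnamed transcript that the table annotates with the orthology name SDHC (ENSG00000288670) went from 2.53 and 2.96 to 4.40 and 3.78 CPM (adjusted p = 0.0451). Its call was lost with DESeq2, with limma-voom and without either empty library or overexpression replicate 1, and how its reads were set apart from those of SDHC is uncertain.

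In the pentose phosphate map 9 of 22 tested members were higher (40.9%) and 5 lower (22.7%). Of all tested genes 23.5% and 23.9% were, so the share lower was close to that of all genes. At 50 CPM or more, 7 of 13 were higher and 1 lower (61.5% called), where 59.9% of tested genes of that level were called. The map also holds glycolysis genes: GPI, PFKM and PFKP count among its higher members and ALDOC among its lower ones. The median log2 fold change was 0.12, and 5 members were higher without empty replicate 1. Of the oxidative arm, H6PD, which makes NADPH in the endoplasmic reticulum, fell from 36.9 and 37.9 to 23.8 and 18.6 CPM (log2 fold change -0.82, SE 0.11, edgeR adjusted p = 2.32e-05). PGLS, the lactonase of the arm, had 24.8 and 21.9 CPM in empty and 17.3 and 19.9 CPM in overexpressing libraries (log2 fold change -0.33, SE 0.11, adjusted p = 0.0209). Both genes were lower in both overexpressing libraries, but the PGLS call was lost with DESeq2 and without empty replicate 1 or overexpression replicate 1. PGD, which makes the second NADPH, overlapped at 211 and 216 and 206 and 217 CPM (log2 fold change -0.01, SE 0.06, adjusted p = 0.883).

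In the non-oxidative arm the enzymes that shuttle carbon units were higher. TKT, transketolase, rose from 889 and 948 to 1167 and 1269.5 CPM (log2 fold change 0.41, SE 0.06, edgeR adjusted p = 6.07e-05). TALDO1, transaldolase, rose from 234 and 242 to 382 and 422 CPM (log2 fold change 0.76, SE 0.06, adjusted p = 1.79e-07). Their relatives TKTL1 and TKTL2 were at or near 0. RPIA, which isomerises ribulose and ribose phosphate, fell from 23.9 and 18.8 to 12.2 and 11.9 CPM (log2 fold change -0.83, SE 0.12, adjusted p = 7.84e-05), while RPE, the epimerase at the same branch, did not pass (log2 fold change 0.06, adjusted p = 0.557). The drop in RPIA was larger than the gap between the empty libraries.

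Further members of the map were called higher or did not pass. PRPS2 and PRPS1, which make the ribose donor of nucleotide synthesis, went from 45.6 and 48.2 to 59.8 and 60.2 CPM and from 156 and 156 to 172 and 175 CPM (adjusted p = 0.00128 and 0.0395), and the PRPS1 call was lost with DESeq2 and without either empty library. DERA, the deoxyribose phosphate aldolase, had 17.1 and 18.3 and then 21.4 and 24.3 CPM (log2 fold change 0.37, SE 0.10, edgeR adjusted p = 0.00892), not called without empty replicate 1 or overexpression replicate 2. GLYCTK, a glycerate kinase that the map holds as a side reaction, rose from 9.36 and 11.3 to 19.9 and 24.4 CPM (log2 fold change 1.11, SE 0.13, adjusted p = 8.61e-06). Its rise exceeded the gaps within the groups. RBKS, ribokinase, and IDNK, a gluconate kinase, did not pass (adjusted p = 0.645 and 0.885).

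To compare levels between genes the deposited TPM were used, as they account for transcript length. The 68 glycolysis genes summed to 20078 and 20246 TPM in the empty libraries and to 17632 and 17768 TPM in the overexpressing ones. The TCA cycle genes, at 2444 and 2542 against 2853 and 2827 TPM, were higher in both overexpressing libraries. So were the pentose phosphate genes, at 3710.3 and 3989 against 4189 and 4235 TPM. That sum also counts genes of the glycolysis map, the largest being ALDOA at 1416 and 1584 against 1348 and 1390 TPM. Glycolysis genes thus held the most transcript in every library, and for each sum the groups did not overlap.

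Within single steps the make-up shifted. LDHA made up 62.5% and 62.2% of lactate dehydrogenase TPM in empty libraries and 52.8% and 50% in overexpressing ones, so that LDHB reached parity in overexpression replicate 2. IDH2 went from 5.20% and 6.45% of the summed TPM of isocitrate dehydrogenase genes to 15.4% and 16.2%, and IDH1 from 16.3% and 18.9% to 12.7% and 10.7%. OGDHL, at 2.75% and 2.58% of the oxoglutarate dehydrogenase E1 sum in empty libraries, held 11.9% and 10.7% with TFCP2L1. HK1 gave way from 71.4% and 71.0% to 61.5% and 61.2% of the glucose-phosphorylating TPM, with ADPGK taking 33.3% and 34.1%. PFKP kept most of the phosphofructokinase sum, at 81.8% and 83.7% against 79.5% and 79.6%.

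**Figure D3:**
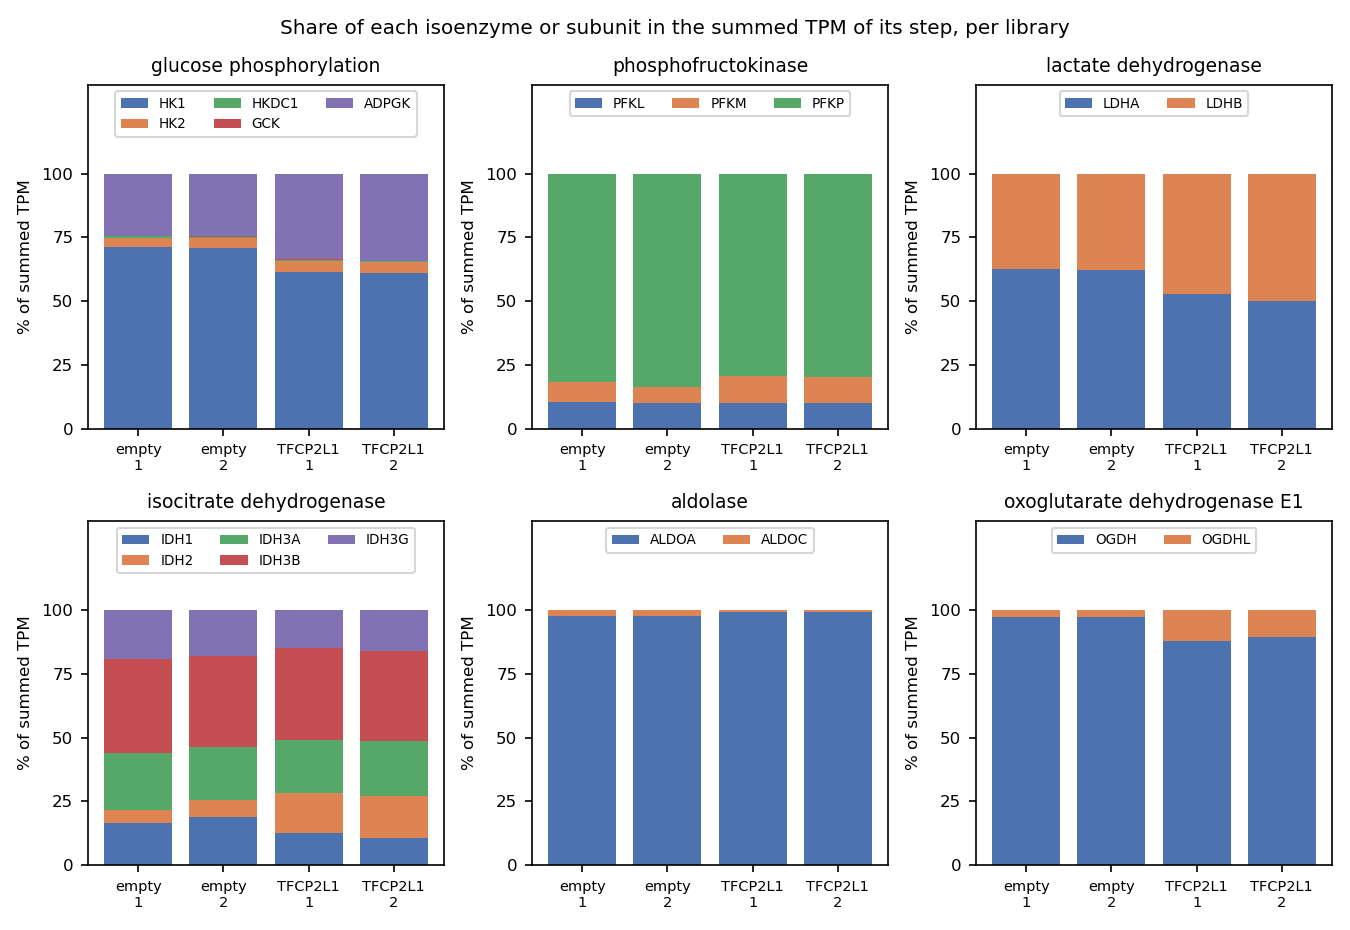
Percent of the summed TPM of a step held by each gene (y axis, bars from 0 to 100%) in each of the 4 libraries, for 6 steps with several genes. LDHB takes 37.5% and 37.8% in the empty libraries and 47.2% and 50% with TFCP2L1.

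Genes next to these maps were taken from lists of transporters, switches, side branches, TCA feeders, NADPH enzymes and regulators. Of 16 tested glucose, lactate and pyruvate transport genes 6 were higher and 4 lower (62.5% called, against 47.5% of all tested genes; median log2 fold change 0.19). SLC16A3, the lactate exporter MCT4, rose from 175 and 193 to 329.9 and 361 CPM, and BSG, its chaperone basigin, from 386 and 397 to 523 and 564 CPM (edgeR adjusted p = 5.07e-08 and 1.09e-05). SLC2A3, the glucose transporter GLUT3, fell from 5.54 and 7.08 to 1.68 and 2.06 CPM (adjusted p = 2.30e-05), and SLC2A12, another facilitative glucose transporter, rose from 1.07 and 0.687 to 5.96 and 5.08 CPM (adjusted p = 2.07e-06). SLC2A1, the main glucose transporter GLUT1, lies outside the naming rule and was chosen after its values were seen. It stood at 62.2 and 84.7 CPM in empty and 288 and 290.3 CPM in overexpressing libraries, a rise larger than any within-group gap (log2 fold change 1.98, SE 0.15, adjusted p = 0.000231), but its call was lost without either overexpressing library. MPC1 and MPC2, the mitochondrial pyruvate carrier, did not pass.

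Among the switches of glycolysis and pyruvate oxidation 7 of 18 tested genes were higher and 4 lower (61.1% called; median 0.01). Of all tested genes 47.5% were called. PFKFB4 and PFKFB3, which make the fructose 2,6-bisphosphate that activates phosphofructokinase, fell from 153 and 148 to 67.6 and 71.7 CPM and from 116 and 101 to 49.1 and 45.6 CPM (edgeR adjusted p = 5.37e-09 and 2.48e-08). PDK2, a kinase that switches pyruvate dehydrogenase off, rose from 7.51 and 7.56 to 17.0 and 19.2 CPM, and PDP1, a phosphatase that switches it on, from 38.8 and 42.9 to 59.7 and 55.7 CPM (adjusted p = 1.33e-06 and 0.000171). PDP2, the other catalytic phosphatase, fell from 33.1 and 28.7 to 21.5 and 19.3 CPM (adjusted p = 0.000218), while the kinases PDK1 and PDK3 did not pass (adjusted p = 0.635 and 0.537) and PDK4, at 0.859 and 0.899 against 3.15 and 1.98 CPM, was called higher (adjusted p = 0.00162). PDP2, PDK1, PDK3 and PDK4 lie outside the naming rule and were added after their values were seen, to cover the 4 kinases and both catalytic phosphatases.

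In glycogen metabolism and the side branches 9 of 27 tested genes were higher and 10 lower (70.4% called; median 0.07). The share called of all tested genes was 47.5%. GFPT2, which opens the hexosamine branch, fell from 158 and 144 to 23.6 and 27.2 CPM, and AKR1B1, the aldose reductase of the polyol branch, from 3040.1 and 2595 to 844 and 936 CPM (edgeR adjusted p = 1.34e-11 and 1.99e-08). Of the glycogen phosphorylases, PYGB rose from 136 and 129 to 241 and 242 CPM while PYGL fell from 79.8 and 80.3 to 44.4 and 44.6 CPM (adjusted p = 2.90e-08 and 2.55e-07). These 4 genes had no overlap between groups, as was the case for 73.7% of all tested genes.

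Of 38 tested genes that feed or drain the TCA cycle 11 were higher and 8 lower (50% called; median 0.16). That share was close to the 47.5% of all tested genes. GOT1, the cytosolic aspartate aminotransferase, rose from 40.8 and 44.5 to 86.9 and 91.1 CPM, and OXCT1, which activates ketone bodies, from 43.4 and 42.6 to 79.9 and 75.4 CPM (edgeR adjusted p = 4.23e-08 and 3.67e-07). ME3, a mitochondrial malic enzyme, fell from 7.68 and 7.56 to 2.18 and 1.72 CPM, and SLC25A10, the dicarboxylate carrier, rose from 28.6 and 30.0 to 48.6 and 52.7 CPM (adjusted p = 2.52e-06 and 2.79e-06). No group overlapped the other for these genes, nor for 73.7% of all tested genes. Of 14 NADPH enzymes outside the maps 4 were higher and 3 lower (50% called; median 0.13), again close to the 47.5% of all tested genes. TXNRD1, cytosolic thioredoxin reductase, rose from 655 and 644 to 971 and 909 CPM (edgeR adjusted p = 2.29e-06). Its mitochondrial counterpart TXNRD2 fell from 154 and 154 to 102 and 112 CPM (adjusted p = 1.15e-05). NADK2, the mitochondrial NAD kinase, fell from 52.3 and 45.0 to 33.6 and 33.5 CPM, and GSR, glutathione reductase, rose from 65.8 and 59.1 to 80.1 and 80.8 CPM (adjusted p = 0.00018 and 0.000963).

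Among regulators of these pathways 4 of 25 tested genes were higher and 9 lower (52% called, against 47.5% of all tested genes). Their median log2 fold change was -0.14. SREBF1, a regulator of lipid synthesis, rose from 49.3 and 52.3 to 114 and 124 CPM, and NFE2L2, which encodes NRF2, from 54.5 and 63.5 to 108 and 109 CPM (edgeR adjusted p = 5.89e-09 and 3.96e-07). USF2, which binds E-boxes, rose from 63.8 and 58.7 to 104 and 116 CPM (adjusted p = 4.72e-07). Among other E-box binders of the list, USF1 and MYC were lower (log2 fold changes -0.28 and -0.59, edgeR adjusted p = 0.0154 and 0.000218). MAX, MLX and MLXIP were called lower too. The MAX call was lost with DESeq2, with no filter on low counts and without either empty library. Without empty replicate 1 the USF1 and MLXIP calls were lost as well. Both overexpressing libraries were above both empty ones for SREBF1, NFE2L2 and USF2, as for 36.7% of all tested genes. HIF1A, the oxygen-sensitive subunit of hypoxia-inducible factor, fell from 636 and 595 to 422 and 394 CPM (log2 fold change -0.59, SE 0.06, adjusted p = 1.42e-06). HIF1A, USF1, MYC, MAX, MLX and MLXIP lie outside the naming rule and were chosen after their values were seen. Whether any regulator bears on the enzymes was not tested.

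**Figure D4:**
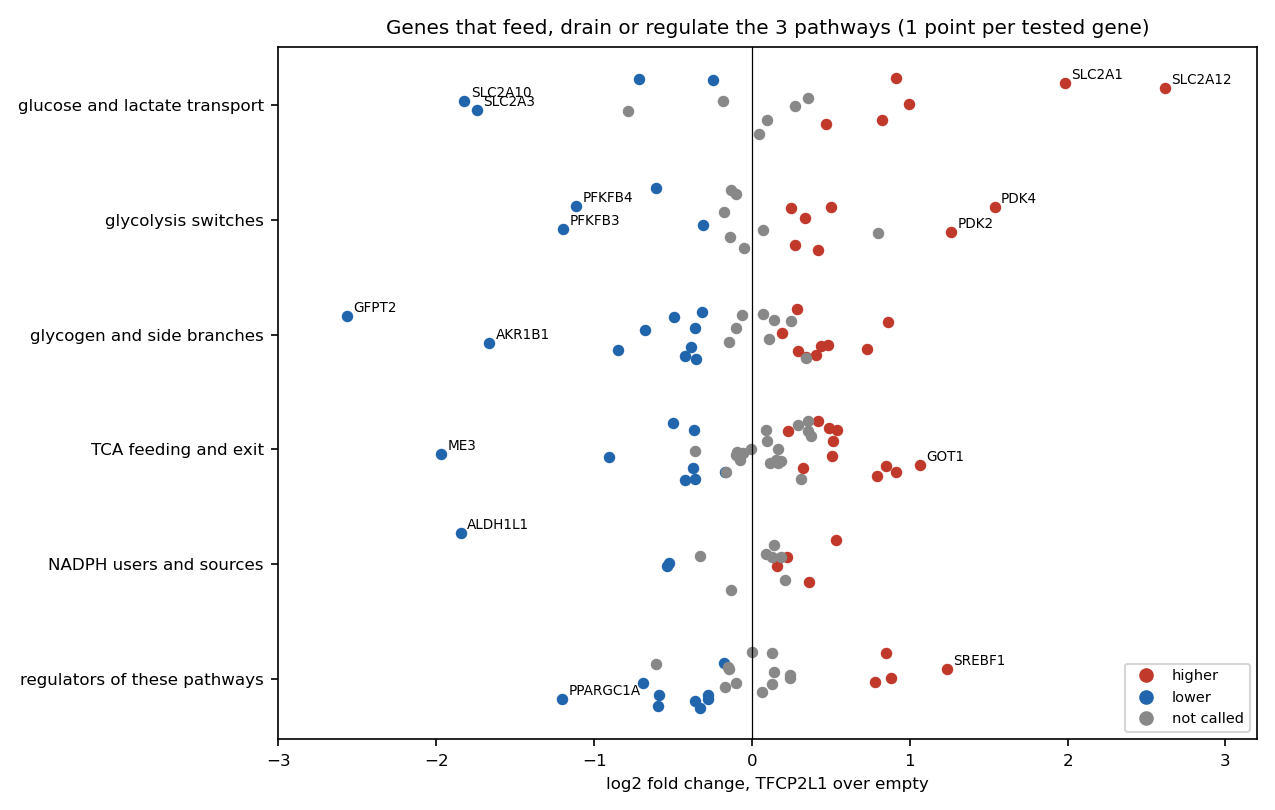
Log2 fold change (TFCP2L1 over empty, x axis) of each tested gene of the 6 neighbouring lists, 1 row per list, 1 point per gene (vertical scatter is only for legibility), with the color showing the edgeR call. Called genes past 1 in size are named; they run from GFPT2 at -2.57 to SLC2A12 at 2.62.

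In the authors' deposited table, 43 of the 52 members called here were past 0.05 there too with the same sign, and 0 with the opposite sign. That table's significance mark fell on 15 members, 8 up and 7 down. For OGDHL and ALDOC the authors' deposited table gave log2 fold changes of 2.40 and -1.61.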

How the data were processed

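RNA-seq values came from 1 table that the authors deposited for 4 libraries. Per the file headers it holds estimated counts and TPM per gene and library, and a single length per gene. It also holds the authors' fold ratio, log2 fold change and p-values. For the counter, strand setting and annotation release the answer was not given in the sources used here. Bowtie 0.12.2 and a mouse build stand in the submitters' processing notes, whereas the gene identifiers in the table are human, so the build of the deposited values is uncertain. The authors' pooled TPM columns are the means of their libraries' TPM. Coordinates printed for genes are those of GENCODE 29 (GRCh38).

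From the deposited estimated counts, rounded to whole numbers, genes were filtered with filterByExpr (minimum count 10), scaled by TMM and tested with edgeR 4.0.16 (quasi-likelihood, R 4.3.3), with Benjamini-Hochberg adjustment over all 16544 genes tested. CPM are estimated counts divided by the TMM-adjusted library size, which is the total over tested genes times the TMM factor (0.995 to 1.005). Standard errors are those implied by the fitted change and its F statistic. The code was tested on simulated data. The members of the 3 maps, the step names and the neighbouring lists were chosen with earlier results of these data known. Members described with all libraries are, per map, up to 12 called members of at least 5 CPM, largest change first, plus the committed steps, and up to 4 genes per neighbouring list, smallest p first. Alternatives were DESeq2 1.42.0, limma-voom (limma 3.58.1), 3 other scalings, 2 other filters, an adjusted p under 0.01 and leaving out each library. A few genes that enter the counts and sums are not reported here one by one.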

Additional observations from a re-analysis of the deposited data

How the results depend on the processing

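No member changed direction among those called, in any of the 12 alternatives, and 29 of the 52 calls were kept in all of them. Leaving out 1 library moved the number of higher members between 17 and 37 in all, between 7 and 15 in the glycolysis map, between 9 and 20 in the TCA cycle map and between 5 and 11 in the pentose phosphate map. At an adjusted p under 0.01, 22 members in all and 12 of the TCA cycle map were higher. With no filter on low counts the median log2 fold change of the glycolysis map was 0.12, and with a filter of 1 CPM in 2 libraries or with upper quartile scaling it was slightly under 0. No paired analysis was possible because the groups share no replicate numbers in the labels. With 2 libraries a group, small changes of low genes could not be resolved at this depth.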
